A study of Danio rerio with 3 samples.

Results

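The genes described here are the insulin-like growth factors, insulin, a receptor for these hormones and the secreted proteins that bind them. They were taken by gene symbol from the platform's probe annotation, in which 9 of the 10 symbols looked for had a probe: igfbp1a, igfbp1b, igfbp2a, igfbp3, igfbp5b, igf1, igf2a, igf1ra and ins. These 9 genes had 16 of the 43603 probes and are 9 of 15571 annotated genes. The tenth, igf2b, had no annotated probe and was not analysed here. The genes were proposed with these same ratios in view, so their values are a description and carry no test of their own.

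The samples were whole zebrafish embryos of the wild-type strain Ab. The treated group was kept in 40 µM LY-364947, an inhibitor of the TGF-β type 1 receptor kinase, from 8 to 48 hours post fertilisation (hpf), and the control group was left untreated. Each of the 3 treated replicates was RNA of 10 to 15 embryos, hybridised on its own 2-colour array together with RNA pooled from 3 untreated replicates. Dyes were swapped for replicate 2.

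Every value is a log2 ratio of the treated embryos and the pool, in the sign of replicates 1 and 3, with the sign of the swapped replicate 2 turned. The labels do not settle whether a positive value means more RNA in treated embryos, as the sample titles read, or in the pool, as a Cy5 over Cy3 ratio would read. Genes are therefore placed on the positive or the negative side. Base 2 is taken as likely but is not stated by the submitters; on base 10 every fold would be larger. The table holds ratios without intensities, so a gene's level, its presence above background and the identity of the tissue could not be checked against marker genes. The number of arrays limits the precision, and the pool's own error is shared by all ratios. In whole-embryo RNA, fewer cells of a type and less RNA per cell cannot be told apart.

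Insulin-like growth factors are secreted peptides related to insulin that drive growth of the embryo. They act through receptor tyrosine kinases, of which igf1ra encodes one of the zebrafish copies, and through the kinases PI3K, Akt and mTOR. Most of the circulating peptide is held by insulin-like growth factor binding proteins, which carry it and keep it from the receptor, and which proteases cut to release it. Zebrafish keep duplicated copies of several of these genes, marked a and b.

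Among the members, igfbp1a stood far out on the negative side, while the other 8 had mean ratios between -0.41 (igf2a) and 0.07 (igfbp2a). In the limma fit over all genes, 3 of the 9 members passed an adjusted p of 0.05, all on the negative side: igfbp1a, igf2a and igfbp5b. Over all 15571 genes, 19.4% passed in either direction, 9.43% below 0 and 9.92% above 0. Since the members were chosen on these ratios, nothing is read from their count, which was 1 without replicate 1 or without replicate 2 and 4 without replicate 3. The median mean ratio was 0.06 for the members and -0.00 for all genes, and the median size was 0.0749 for the members against 0.0885 for all genes. The typical member thus had a ratio of ordinary size, and igfbp1a was the member beyond 2-fold. The 3 arrays had 1 sign for 6 of the 9 members and for 52.3% of all genes.

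**Figure D1:**
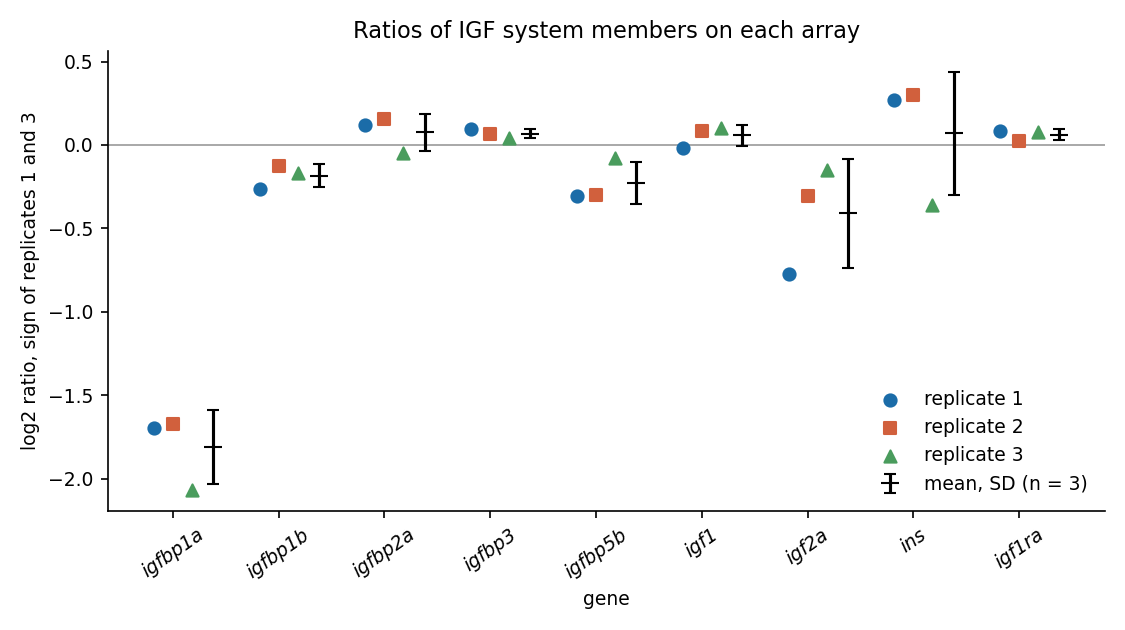
Log2 ratios (y axis) of the 9 measured members (x axis) on each array, with the mean and SD over 3 arrays. All 3 values of igfbp1a lie between -2.07 and -1.67, below every value of the other members, and those of ins lie on both sides of 0.

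Of the binding proteins, igfbp1a encodes a small secreted protein that holds growth factor away from its receptor and slows embryonic growth in zebrafish under low oxygen; its mammalian counterpart is made mainly by the liver. Its gene-level ratio was -1.70 on replicate 1, -1.67 on replicate 2 and -2.07 on replicate 3. The mean of -1.81 ± 0.22 (SD, n = 3) is a 3.51-fold difference on base 2 and would be 64.9-fold on base 10. It was the 5th most negative mean of all 15571 genes. On the single arrays igfbp1a ranked 5th on replicate 1, 4th on replicate 2 and 3rd on replicate 3 from the negative end, so its place did not rest on 1 array.

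The 3 igfbp1a probes gave similar means. The first probe averaged -1.76 ± 0.38, the second -1.80 ± 0.20 and the third -1.88 ± 0.11 (SD, n = 3 each). The first probe was also the one whose arrays differed most, with -1.52 and -1.56 on replicates 1 and 2 and -2.20 on replicate 3. In the limma fit over all probes, 4 of the 16 member probes passed an adjusted p of 0.05. Of all probes, with or without a gene symbol, 10.4% passed, and nothing is read from the member count. The member probes that passed were the 3 igfbp1a probes and the first igfbp5b probe.

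The duplicate gene igfbp1b, whose protein likewise restrains growth factor action, had 1 probe. It stood at -0.26, -0.12 and -0.17 on replicates 1, 2 and 3, with a mean of -0.18 ± 0.07. All 3 arrays thus lay on the negative side, at a 1.14-fold size, and igfbp1b did not pass in the fit over all genes. The difference, igfbp1a minus igfbp1b, was -1.44, -1.55 and -1.90 log2 units on the same arrays, so the copies were far apart on every array.

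The gene igfbp5b encodes a binding protein that is abundant in mammalian bone. On replicates 1, 2 and 3 its ratio was -0.31, -0.30 and -0.08, with a mean of -0.23 ± 0.13. The 2 probes disagreed in size, at -0.38 ± 0.15 and -0.08 ± 0.10, and the second was above 0 on replicate 3. The gene-level call therefore rests on the first probe, and it was lost without replicate 1 and without replicate 2.

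Neither igfbp2a nor igfbp3 passed. igfbp2a encodes a circulating binding protein, and its probe had 0.12, 0.15 and -0.05 on replicates 1, 2 and 3 (mean 0.07 ± 0.11). igfbp3, whose product is the main serum carrier in mammals and is active in ear and pharyngeal cartilage of zebrafish embryos, had 0.10, 0.06 and 0.04 on the 3 arrays. Its SD of 0.03 was the smallest among the members, and its probes stood at 0.12 ± 0.09 and 0.02 ± 0.05. The first had 0.21, 0.13 and 0.02 on replicates 1, 2 and 3, and the second -0.02, 0.00 and 0.07. The probes thus ran in opposite orders, and the small SD is that of their average.

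**Figure D2:**
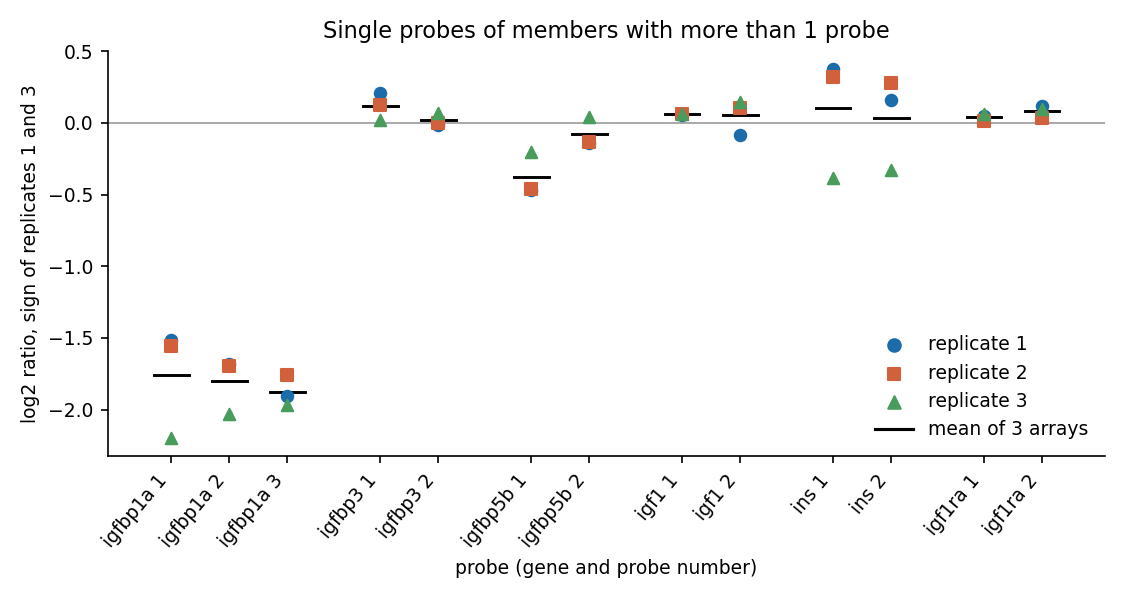
Log2 ratios (y axis) of each probe of the 6 members with more than 1 probe (x axis), 1 point per array and a line at the mean of 3 arrays. The 3 igfbp1a probes lie together near -1.8, the igfbp5b probes are apart at -0.38 and -0.08, and both ins probes fall below 0 on replicate 3.

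Of the growth factors, igf2a encodes a duplicate of the fetal growth factor of mammals and had the widest spread after ins. Its probe gave -0.78 on replicate 1, -0.31 on replicate 2 and -0.15 on replicate 3. The arrays shared a sign but not a size, and the mean was -0.41 ± 0.33. Of all genes, 1.74% had a larger SD between arrays. Its call in the fit over all genes was lost without replicate 1, at a mean of -0.23, and without replicate 2, at -0.46, and its probe did not pass in the fit over all probes.

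igf1 encodes the growth factor that growth hormone induces in the liver. It stood at -0.02, 0.08 and 0.10 on replicates 1, 2 and 3, a mean of 0.06 ± 0.06, and did not pass. Its 2 probes had nearly the same mean, 0.06 and 0.05, although the first varied with an SD of 0.01 and the second with an SD of 0.12. The receptor gene igf1ra had 0.08, 0.02 and 0.08 (mean 0.06 ± 0.03) and did not pass either. Ligand igf1 and receptor igf1ra were thus both within about 0.1 log2 units of 0 on every array.

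The gene ins encodes insulin, which the beta cells of the pancreas make. On replicates 1 and 2 its ratio was 0.27 and 0.30, and on replicate 3 it was -0.36. The mean of 0.07 ± 0.37 therefore lay between arrays on opposite sides, and 1.17% of all genes had a larger SD. Both probes showed the split: the first had 0.37, 0.32 and -0.39, and the second 0.16, 0.28 and -0.33. Within the arrays, 90.0% of genes lay below ins on replicate 1, 93.3% on replicate 2 and 5.23% on replicate 3. Leaving out replicate 3 gave a mean of 0.28, and ins then passed on the positive side in the limma fit.

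The endocrine pancreas was followed through 21 other measured markers, of which 5 passed above 0 and 2 below 0 by limma (19.4% of all genes passed). Their median was 0.02, with medians of -0.01, 0.05 and -0.02 on replicates 1, 2 and 3. The glucagon gene gcga, of alpha cells, stayed positive on all arrays at 0.26, 0.27 and 0.10. The somatostatin gene sst2, of delta cells, stayed negative at -0.43, -0.41 and -0.62 (adjusted p = 0.00265 by limma). The other somatostatin gene of the list that was measured, sst1.1, lay on the opposite side at 0.12, 0.20 and 0.30 (adjusted p = 0.0439 by limma). pdx1, a transcription factor of the pancreas and its beta cells, had 0.26, 0.28 and -0.11 on replicates 1, 2 and 3 and did not pass (limma adjusted p = 0.31). Its values thus lay on the same side of 0 as those of ins on each array, as did those of mnx1 (0.04, 0.01 and -0.02). The mnx1 values were close to 0 (limma adjusted p = 0.914). No other marker of the list had these signs on the 3 arrays. The liver markers vtna (0.25, 0.39 and -0.08), vtnb (0.40, 0.58 and -0.11) and fgg (0.05, 0.11 and -0.20) did. Some genes of the other lists had them as well. The share of all genes with these signs was not computed, so nothing is read from them. The second insulin gene, insb, had 0.20, -0.04 and -0.09. The markers with the smallest adjusted p were neurod1 (1.02 ± 0.04, adjusted p = 9.73e-05 by limma) and isl1a (0.70 ± 0.08), transcription factors that neurons also express. nkx6.1, a transcription factor of pancreatic progenitors and of the neural tube, stood at -0.29 ± 0.10, and its call was lost without replicate 2 (limma adjusted p = 0.112) and with a dye term (0.0756). The count of 7 calls in this list was 4 without replicate 1 and 3 without replicate 2 or with a dye term. The genes gcga, sst1.1, pdx1, mnx1, vtna, vtnb and fgg were singled out after their values were seen. Whether the number of beta cells moved with ins was not tested.

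**Figure D3:**
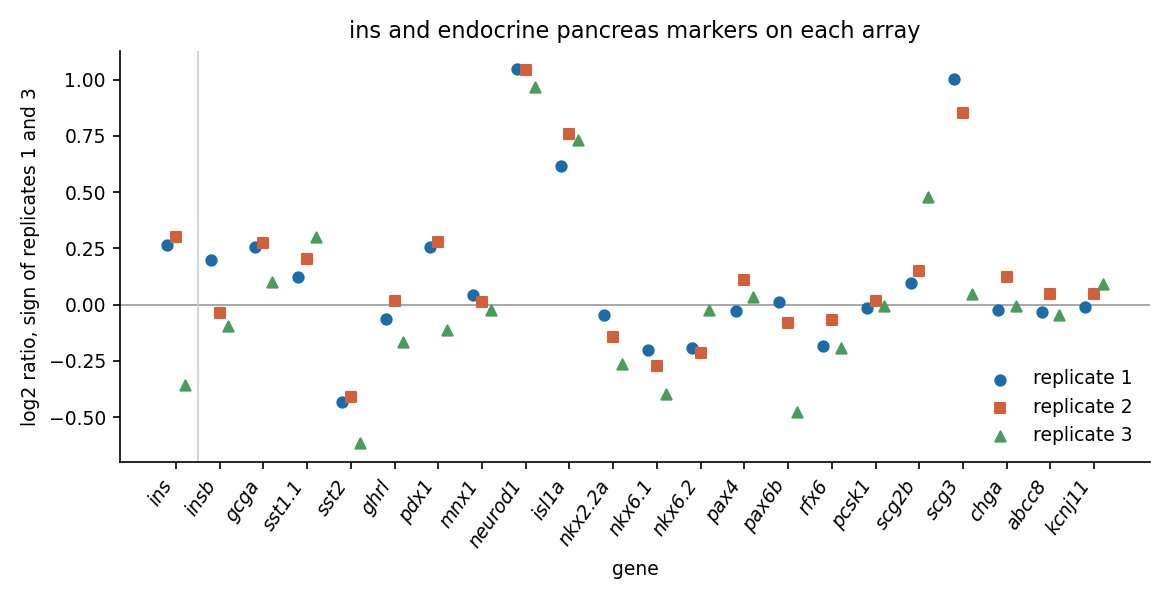
Log2 ratios (y axis) of ins and 21 endocrine pancreas markers (x axis), 1 point per array. ins lies at 0.27 and 0.30 on replicates 1 and 2 and at -0.36 on replicate 3, while gcga is positive and sst2 negative on all arrays.

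In the RefSeq annotation of the GRCz12tu assembly, igfbp1a and igfbp3 are adjacent protein-coding genes. The neighbours had unlike ratios: the difference, igfbp1a minus igfbp3, was -1.79, -1.73 and -2.11 log2 units on replicates 1, 2 and 3. Of the 10 protein-coding genes within 5 places of igfbp1a, 7 were measured, with mean ratios from -0.05 to 0.07. Apart from igfbp3, which is a member, 0 of them passed an adjusted p of 0.05 by limma, where 19.4% of all genes did. At an unadjusted p under 0.05 the count was 0 as well, against 5054 of all 15571 genes. With so few genes, these counts of 0 say little. By mean ratio, the large value at this locus was seen at igfbp1a and at none of the measured neighbours.

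The duplicated binding protein genes are neighbours as well. igfbp2a lies next to igfbp5a, whose mean was -0.01 ± 0.10, and neither passed. igfbp5b lies next to igfbp2b, which had -0.12, -0.13 and -0.12 on the 3 arrays. The igfbp2b values were almost equal, with an SD of 0.005, yet small, and the gene did not pass (adjusted p = 0.137 by limma). Older names of these copies were exchanged between a and b, so the symbols here follow the Entrez identifiers of the annotation.

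**Figure D4:**
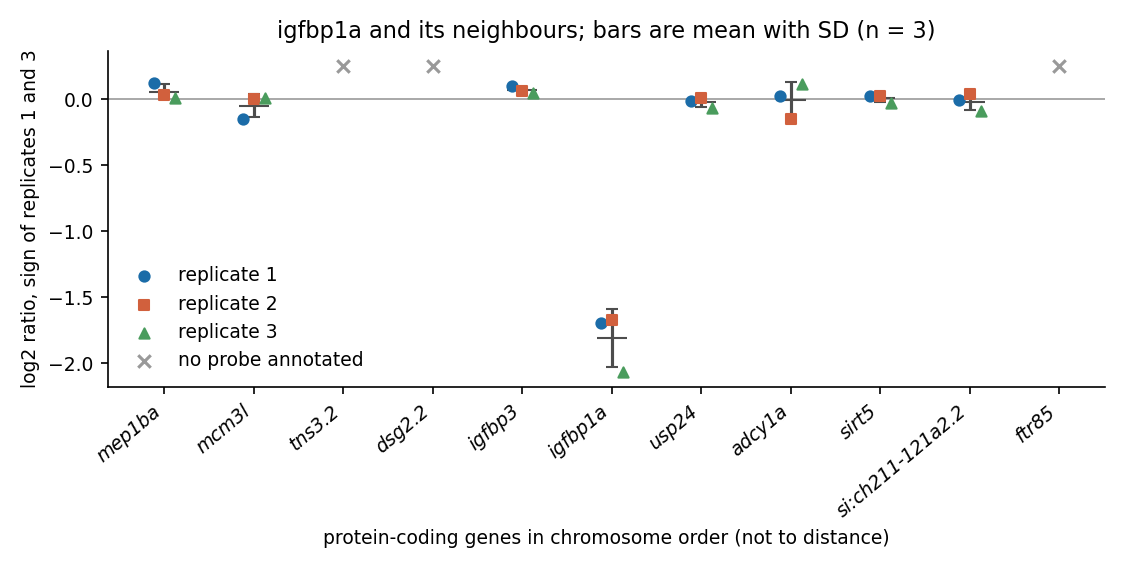
Log2 ratios (y axis) of igfbp1a and the 5 protein-coding genes on each side of it in chromosome order (x axis, not to distance), with points per array and the mean and SD of 3 arrays. igfbp1a lies near -1.8 and the 7 measured neighbours between -0.05 and 0.07 on average; crosses mark genes with no annotated probe.

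In the rest of the insulin-like growth factor system, of 43 other measured genes, 2 passed below 0 and 3 above 0 by limma, where 19.4% of all genes passed, and the median was 0.01. The count of 5 became 3 without replicate 2. All 4 other receptor genes had mean ratios near 0 and did not pass: insra (-0.03 ± 0.10) and insrb (-0.02 ± 0.06) for the insulin receptors, igf1rb (0.00 ± 0.08), and igf2r (0.01 ± 0.11), whose mammalian product clears growth factor from the cell surface. At an unadjusted p under 0.05 by limma the count of these 4 receptor genes was 0 as well, against 5054 of all 15571 genes. With 4 genes, a count of 0 says little. The other ligand measured, insb, averaged 0.02 ± 0.15. Of 3 other binding protein genes 0 passed, and 1, igfbp2b, had an unadjusted p under 0.05 by limma. igfbp7, a related secreted protein with low affinity for the growth factors, stood at 0.04 ± 0.11.

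The list of binding protein proteases and stanniocalcins had 3 of the 5 calls. Stanniocalcins are secreted glycoproteins that in mammals block the pappalysin proteases, which cut binding proteins, and HtrA1 is a serine protease that cuts some binding proteins in mammals. Of 6 measured genes of this list, 1 passed below 0 and 2 above 0, where 9.43% and 9.92% of all genes did, and the median was 0.03. The stanniocalcin gene stc2a stood at -0.60, -0.44 and -0.73 on replicates 1, 2 and 3, with a mean of -0.59 ± 0.14 (adjusted p = 0.00184 by limma). stc1l, another stanniocalcin gene, lay on the other side at 0.74, 0.53 and 0.21, a mean of 0.49 ± 0.27 (adjusted p = 0.0145 by limma). Its probes differed, at 0.14 ± 0.07 and 0.84 ± 0.47, and the first did not pass alone. htra1a stood at 0.45, 0.32 and 0.33, a mean of 0.37 ± 0.07 (adjusted p = 0.00488 by limma). The pappalysin genes pappaa, pappab and pappa2 had no annotated probe and were not analysed here. The call of stc1l was lost without replicate 2 (mean 0.47, limma adjusted p = 0.108) and with a dye term (mean 0.50, adjusted p = 0.0544), and the list count of 3 then became 2.

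Receptor signalling genes run from the Irs adaptors to PI3K, Akt, Foxo and mTOR. Of 29 measured, 1 passed below 0 and 1 above 0 by limma, where 19.4% of all genes passed in either direction, and the median was 0.01. eif4ebp3l, an inhibitor of cap-dependent translation that mTOR phosphorylates, had -0.59, -0.56 and -0.65 on replicates 1, 2 and 3 (mean -0.60 ± 0.04, adjusted p = 0.000635 by limma). rheb, the small GTPase that activates mTOR, had 0.18, 0.44 and 0.29 (mean 0.30 ± 0.13, adjusted p = 0.0184 by limma), a call that was lost without replicate 2 (mean 0.24, adjusted p = 0.162). The list count of 2 was 1 without replicate 2 and 4 without replicate 3. The values of eif4ebp3l were alike on the 3 arrays, and those of rheb were not.

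Growth hormone, which the pituitary makes, drives igf1 through its receptor and Stat5. Of 17 measured genes of this axis, 2 passed above 0 and 0 below 0 by limma, with a median of -0.02; of all genes, 9.92% passed above 0 and 9.43% below 0. The hormone gene gh1 had 0.24, 0.26 and 0.27 on the 3 arrays (mean 0.26 ± 0.02, adjusted p = 0.0133 by limma). cisha, a feedback inhibitor of cytokine receptors that Stat5 induces in mammals, stood at 0.47, 0.37 and 0.41 (mean 0.42 ± 0.05). Its probes differed at 0.61 and 0.22, and the second did not pass alone. The receptor genes ghra (-0.03 ± 0.02) and ghrb (-0.13 ± 0.07) did not pass. Of 10 measured pituitary markers, 2 passed, where 19.4% of all genes did: gh1 and the pro-opiomelanocortin gene pomca (0.31 ± 0.03, adjusted p = 0.00701 by limma), both on the positive side. The call of gh1 was lost without replicate 2 (mean 0.25, limma adjusted p = 0.128) and with a dye term (0.072), and that of pomca without replicate 2 (mean 0.32, adjusted p = 0.075). The count for the axis was 1 without replicate 2 and 5 without replicate 3, and that of the pituitary markers 0 (2 at an unadjusted p under 0.05 by limma) and 4.

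Low oxygen induces igfbp1a in zebrafish, so genes of the hypoxia response were set beside it. Of 32 measured, 5 passed below 0 and 2 above 0 by limma, and the median was -0.03. Of all genes, 9.43% passed below 0, 9.92% above 0 and 19.4% in either direction. On the negative side, ddit4, an mTOR inhibitor that stress induces, had -0.64, -0.66 and -1.40 on replicates 1, 2 and 3. vegfaa, the vessel growth factor, had -0.48, -0.76 and -1.17, and hmox1a, a haem oxygenase, -0.62, -0.52 and -0.44. The other calls below 0 were egln3 (-0.13, -0.40 and -0.46, limma adjusted p = 0.022) and vhl (-0.34, -0.12 and -0.71, limma adjusted p = 0.0441). For igfbp1a, ddit4, vegfaa, egln3 and vhl the value of replicate 3 was the most negative, and for hmox1a the least. This order was looked at after the values were seen, and the share of all genes with such an order was not computed. Nothing is therefore read from it, and a link with igfbp1a was not tested. The 2 calls above 0 were ndrg1b at 1.59 ± 0.06 (adjusted p = 2.05e-05 by limma) and bnip3lb at 0.27 ± 0.09 (limma adjusted p = 0.0179). The glycolytic target genes ldha (0.21 ± 0.12) and pgk1 (-0.26 ± 0.18) did not pass. The list thus held genes on both sides, and 25 of 32 did not pass. Its count of 7 calls was 5 without replicate 1 or 2, 11 without replicate 3 and 4 with a dye term.

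Glucocorticoids and fasting also induce the mammalian counterpart of igfbp1a in the liver. Of 13 measured genes of the glucocorticoid response, 1 passed above 0 and 2 below 0 by limma, where 9.92% and 9.43% of all genes did, with a median of 0.04. The co-chaperone gene fkbp5, a classical target, had a mean of 1.12 ± 0.12 with a lowest array value of 0.98 (adjusted p = 0.000129 by limma). Its probes differed in size, at 1.41 ± 0.21 and 0.84 ± 0.10, and both passed alone. The phosphatase gene dusp1 stood at -0.57 ± 0.10, and g6pc1a.1, which encodes the last enzyme of glucose release, at -0.25 ± 0.15. The call of g6pc1a.1 was lost without any 1 of the replicates, with limma adjusted p from 0.0643 to 0.159, and the list count of 3 was 2 without replicate 1 or 2. klf9 (0.15 ± 0.06), tsc22d3 (0.01 ± 0.03) and the receptor gene nr3c1 (0.04 ± 0.03) did not pass.

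Liver markers, which could move with igfbp1a or igf1, lay on both sides. Of 25 measured, 4 passed above 0 and 3 below 0 by limma, where 9.92% and 9.43% of all genes did, the median was 0.01, and the means ran from -0.35 to 1.87. On the positive side the liver fatty acid binding protein gene fabp10a stood at 1.99, 1.98 and 1.64 (mean 1.87 ± 0.20, adjusted p = 5.24e-05 by limma). uox, urate oxidase, differed 2.15-fold (SD 0.13 log2 units), with hpda, of tyrosine breakdown, at 0.80 ± 0.14, and prox1a, a transcription factor of liver and other organs, at 0.86 ± 0.15. The uox probes differed in size, at 1.42 ± 0.22 and 0.78 ± 0.16, and both passed alone. On the negative side, the ceruloplasmin gene cp stood at -0.35 ± 0.11 (adjusted p = 0.00849 by limma). The retinol carrier gene rbp4 had -0.26 ± 0.04 (limma adjusted p = 0.0128) and the complement gene c3a.1 had -0.19 ± 0.04 (0.0428). These 3 were singled out after their values were seen, and the count below 0 was 2 without replicate 1 or 3 and 1 without replicate 2. The part of liver cell number in the igfbp1a ratio was not tested.

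**Figure D5:**
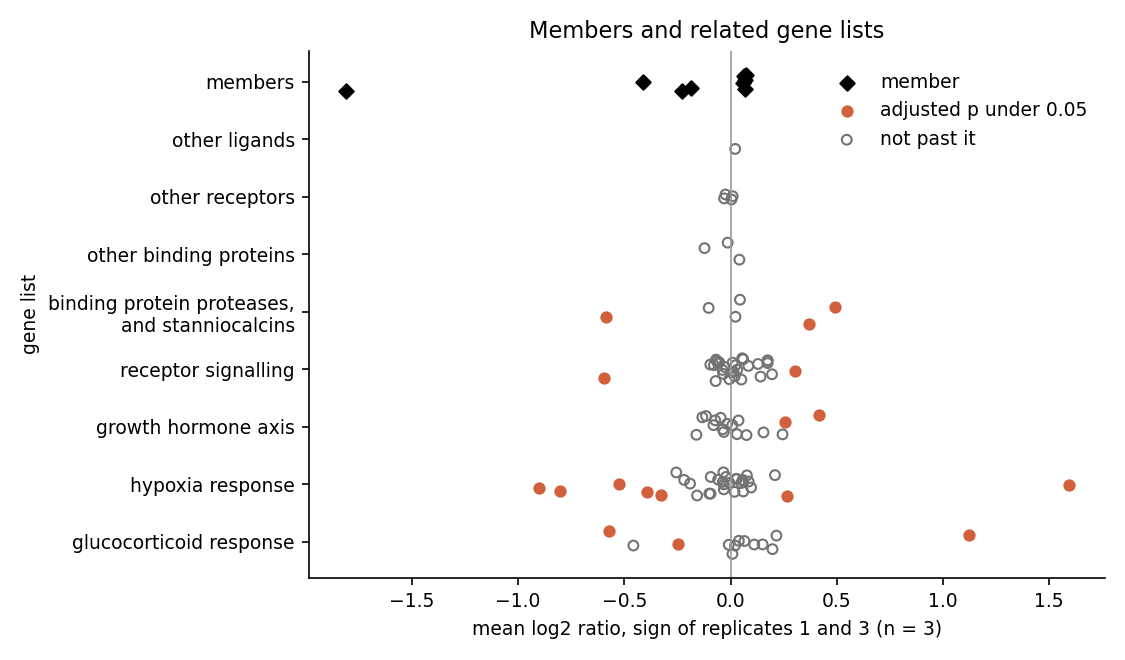
Mean log2 ratios over 3 arrays (x axis) of the 9 members and of 8 related gene lists (y axis), 1 point per gene, filled where a gene outside the members passed an adjusted p of 0.05 by limma. igfbp1a, at -1.81, lies beyond every gene of these lists on the negative side, the lowest of which is ddit4 at -0.90.

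Among genes outside the members, clone symbols passed over, the 5 with ratios most like those of igfbp1a over the 3 arrays, by Euclidean distance in log2 units, were acta2 (0.408), cela1.6 (0.473), slc1a3a (0.643), her2 (0.677) and phgdh (0.768). acta2, smooth muscle actin, had -2.05, -1.69 and -1.87 on replicates 1, 2 and 3. cela1.6, a pancreatic elastase, had -1.84, -2.02 and -1.78. The means of the others were -1.47 for the glutamate transporter gene slc1a3a, -1.48 for her2, a Notch pathway repressor gene, and -1.38 for phgdh, of serine synthesis, all smaller in size than that of igfbp1a.

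The dye effect was estimated from the same 3 ratios per gene as the treatment effect, so it is no independent measure. In a limma fit with a dye term and 1 residual degree of freedom, 0 of the 9 members had a dye coefficient past the threshold and 0 had an unadjusted p under 0.05, as against 0 and 111 of all 15571 genes. With so small a share among all genes, the count of 0 among 9 members says little. The dye coefficient of igfbp1a was -0.11, beside a treatment coefficient of -1.78. That of ins, -0.17, was the largest of the members in size, and 1.39% of all genes had a larger one. The ins ratio was 0.27 and -0.36 on replicates 1 and 3, which shared a dye orientation, and 0.30 on the swapped replicate 2. Beyond this coefficient, which rests on 1 swapped array, a part of the dyes in the spread of ins was not tested.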

How the data were processed

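Per the labels' protocols, total RNA of whole embryos was amplified, labelled with Cy3 or Cy5 and hybridised on 2-colour arrays. The authors deposited a log ratio for each probe on each array, taken here to be log2. Partek is named in the submitters' processing notes. The background correction, normalisation, log base and numerator were not given in the sources used here. Deposited array medians were -0.0035, -0.0029 and -0.0050 for replicates 1, 2 and 3, and 0 values were missing. Over all probes, replicate 2 correlated with replicates 1 and 3 at r = -0.742 and -0.647 as deposited, so its sign was turned.

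Of 43648 probes, 45 controls were left out. The annotation gave 1 symbol to 23717 probes, several to 0 and none to 19886. Probes of a gene (Entrez identifier) were averaged, giving 15571 genes, and 15416 were found in RefSeq's GRCz12tu table, where 0 symbols differed. A gene's mean ratio was set against 0 in limma 3.58.1 (lmFit, eBayes, 2 residual degrees of freedom; R 4.3.3), with Benjamini-Hochberg adjustment over all genes at 0.05. The pool is 1 control sample, and its own spread is not in the test. P-values set the mean ratio against the spread between the treated replicates, which limma moderates over all genes.

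The members and lists were chosen with earlier results of these data known. Genes named were all members, every other ligand, receptor and binding protein, up to 4 of each other list with the smallest adjusted p among those that passed, and the 5 genes nearest to igfbp1a, passing over clone symbols; a like rule for igf2b could not be applied. Others (gcga, sst1.1, pdx1, mnx1, vtna, vtnb, fgg, cp, rbp4, c3a.1, ghra, ghrb, egln3, vhl, bnip3lb, ldha, pgk1, klf9, tsc22d3, nr3c1) were added after their values were seen. They have no alternatives, nor have the probe calls, ranks, distances and chromosomal neighbours. The gene, member and list counts, the member means and the genes named by rule were recomputed with arrays centred, scaled or quantile normalised, a dye term, a robust prior, 1 probe per gene, the sign of replicate 2, a threshold of 0.01 and each replicate left out in turn. Figures used matplotlib 3.10.9 (Python 3.11.15).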

Additional observations from a re-analysis of the deposited data

How the results depend on the processing

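No paired analysis was possible because there is 1 group of treated replicates and 1 pool. The count of genes past the threshold, 3013, fell to 1465 with a dye term, 1434 at an adjusted p of 0.01 and 0 with replicate 2 left unturned (34 genes at an unadjusted p under 0.05), and ranged from 1041 (without replicate 2) to 3693 (without replicate 3) on leaving out 1 replicate. The count of members, 3, became 1 with a dye term, 1 at 0.01 and 0 with replicate 2 unturned (0 at an unadjusted p under 0.05), and ranged from 1 to 4 on leaving out 1 replicate. igfbp1a passed in each of these settings except the unturned sign, with means from -1.88 (without replicate 2) to -1.68 (without replicate 3) on leaving out 1 replicate. The call of igfbp5b was also lost with arrays centred or scaled. Of 155 listed genes outside the members, 32 passed, against 20 with a dye term, 19 at 0.01 and 0 with replicate 2 unturned (2 at an unadjusted p under 0.05), and 19 (without replicate 2) to 44 (without replicate 3) on leaving out 1 replicate. Leaving out replicates or adding a dye term also removes degrees of freedom. Of 396 values of named genes under alternatives, 47 lost the threshold, 28 of them with replicate 2 unturned, and 0 changed sign while past it. The 396 values include those of genes that did not pass in the main fit and so could not lose the threshold. With replicate 2 unturned every call of a named gene was lost, as the swapped array is then set against the other arrays. That outcome was fixed by the dye swap, so nothing is read from it. Without intensities, dim probes could not be left out.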
